A study of Mus musculus with 3 samples.

Results

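Gene expression was compared between a LIFR knockout (LIFR KO) and a wildtype culture of cells that the labels call mouse embryonic stem cells (mESCs). The pair is 2 of the 3 arrays of the study; the remaining array, labelled as a gp130 knockout (gp130 KO), is given beside it. The labels state the genotype, the cell type and a standard culture for all 3 groups, with no treatment, and all were read from total RNA on single-colour Agilent arrays. The sources used here do not state the strain, how the knockouts were made or whether each line was 1 clone. Each genotype had 1 array and there were no replicates, so no test was possible: every difference is one between 2 arrays, and genotype, culture, RNA preparation and hybridisation cannot be told apart. Of 20659 genes named on the array, 13079 had a probe well above background on both the wildtype and the LIFR KO array, in spots free of stray signal, and these genes make up the comparison.

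LIFR is the membrane receptor of leukaemia inhibitory factor (LIF). It pairs with gp130, the product of Il6st and the signalling chain shared by the receptors of the interleukin 6 family, and the pair activates JAK kinases, the transcription factor STAT3 and the ERK pathway. In mouse embryonic stem cells LIF is known for holding the cells in self-renewal, with Socs3 as the feedback inhibitor that STAT3 induces.

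Signals are given scaled, with the 75th percentile of each array's probes set to 1000. At 58.3%, the share of probes well above background was lower on the LIFR KO array than on the wildtype array, where it was 64.3%. The LIFR KO array also carried a patch of stray signal, with local background up to 25884 against an array median of 23.5, and 249 spots were left out for it, against 2 on the wildtype array. The median scanner error of a log2 ratio was 0.204. Across 250 probes printed in several spots, the SD of the ratio had a median of 0.042 and a 90th percentile of 0.141, which covers spots and not cultures.

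The targeted gene did not check the labels. The Lifr probe gave 56.2 on the wildtype, 43.9 on the LIFR KO and 57.2 on the gp130 KO array. The log2 ratio of LIFR KO over wildtype was -0.36, with a scanner error of 0.28, and the other Lifr probes were well above background on neither array. Il6st, the gp130 gene, had 529.7 on the wildtype, 541 on the LIFR KO and 494 on the gp130 KO array, a log2 ratio of 0.03. The sources used here do not state where the probes lie relative to the deleted part, and a probe outside it cannot check the label, so the arrays are called by their labels.

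Markers of the labelled cell type were partly absent. Of 6 pluripotency markers 4 were well above background on both arrays, while Sox2 and Zfp42 were so on neither. Pou5f1, the gene of Oct4, had 50.2 and 33.3 on the wildtype and the LIFR KO array, Nanog 508 and 317, Lin28a 1172 and 784, and Esrrb 81.1 and 62.5. All 4 were dimmer on the LIFR KO array, none of them by 2-fold. The 6 epithelial markers (Cdh1, Epcam, Krt8, Krt18, Esrp1 and Grhl2) were measured on both arrays, with a summed signal of 99352 on the wildtype and 112605 on the LIFR KO array. Krt18 made up most of it, with 63681 and 74143.5. Esrp1 went the other way from the rest, with 5366 on the wildtype and 3353 on the LIFR KO array, a log2 ratio of -0.68. Of 7 fibroblast or feeder markers 2 were measured, Col1a1 (113 and 376) and Pdgfra (371 and 458), with a summed signal of 485 and 835. The other 5 were at most above background on 1 array. Of 3 blood markers only Ptprc was measured, at 36.5 and 28.5, while Lyz2 was above background on neither array and Cd68 was not named. In a wider list of blood and endothelial genes 6 of 10 on the array were measured, with log2 ratios from -0.48 to -0.21, among them Itgam with 1509 and 1301 and Kdr with 1740.4 and 1368.

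At least 2-fold higher on the LIFR KO array were 264 of the 13079 genes (2.02%), and 164 (1.25%) were at least 2-fold lower. The other 12651 genes (96.7%) lay between. The middle of the distribution was narrow: the quartiles of the log2 ratio were -0.21 and 0.20 and its median was 0.0091. The higher side therefore held 61.7% of the genes past 2-fold. With the arrays scaled to their medians, which moved the median log2 ratio of all genes to 0.17, it held 79.6%, with 393 genes higher and 101 lower. Dim genes passed 2-fold more often. Of genes with a mean scaled signal under 100, 2.91% were higher and 2.52% lower, against 0.581% and 0.659% of genes over 5000. The median log2 ratio also rose with signal. It was -0.17 under 100, -0.11 from 100 to 300, 0.047 from 1000 to 5000 and 0.077 over 5000. The ratios and list medians below were not adjusted for this.

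**Figure D1:**
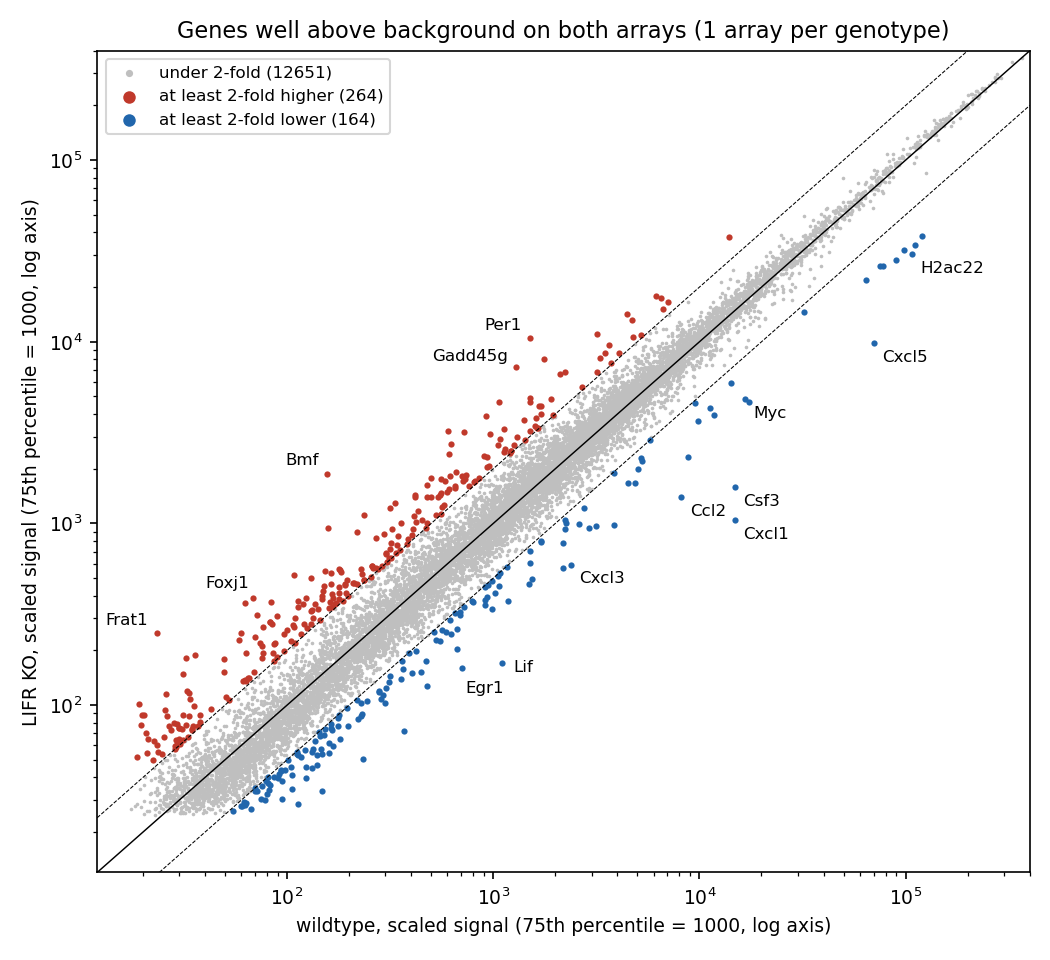
Scaled signal of the 13079 genes on the wildtype (x axis) and LIFR KO (y axis) array, both log axes, with 1 point per gene, a solid line of equal signal and dashed lines at 2-fold. The 264 red genes lie above the upper and the 164 blue genes below the lower dashed line; Bmf and Frat1 stand farthest above, Cxcl1 and Csf3 farthest below, and bright H2A histone genes form a group at the lower right.

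Genes of secreted inflammatory proteins made up the far end of the lower side. Cxcl1, a chemokine that attracts neutrophils, gave 14852 on the wildtype, 1041 on the LIFR KO and 1798 on the gp130 KO array. That is a 14.3-fold lower signal on the LIFR KO array, the largest difference downward among the genes compared, with a scanner error of 0.204 on the log2 scale. Cxcl5, of the same chemokine class, gave 70213 on the wildtype, 9849.7 on the LIFR KO and 13147 on the gp130 KO array. Cxcl3 gave 2381 on the wildtype, 594 on the LIFR KO and 559.5 on the gp130 KO array. The LIFR KO signal was 7.13-fold lower for Cxcl5 and 4.01-fold lower for Cxcl3. The wildtype array, which both knockout comparisons share, was the highest of the 3 for each of these chemokines. Ccl2, which attracts monocytes, had 8173 on the wildtype, 1399 on the LIFR KO and 2498 on the gp130 KO array, and Ccl7, its close relative, 148 on the wildtype, 33.7 on the LIFR KO and 47.5 on the gp130 KO array. They were 5.84-fold and 4.39-fold lower on the LIFR KO array. In RNA from whole cultures, fewer cells that make a transcript and less transcript per cell cannot be told apart. The blood markers given above were lower on the LIFR KO array too, none by 2-fold, and their part in this result was not tested.

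Of 12 measured chemokine genes, 5 were at least 2-fold lower and 0 higher, with a median log2 ratio of -0.60 beside 0.0091 over all genes. The 5 are the genes just described. Over all genes compared 1.25% were at least 2-fold lower and 2.02% higher, and each list count below is to be read beside these shares. The other 7 lay within 2-fold: Cxcl10 had a log2 ratio of -0.55, Cxcl16 -0.66, Ccl4 -0.54, Ccl5 0.11, Ccl25 0.25, Cx3cl1 0.47 and Cxcl9 0.48. The chemokines that signal through CXCR3 (Cxcl9 and Cxcl10), which interferons induce, were thus not among those past 2-fold.

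Some genes of colony-stimulating factors and other cytokines were also lower. Csf3 (G-CSF), the growth factor of neutrophils, had 14843 on the wildtype, 1583 on the LIFR KO and 2411 on the gp130 KO array, and was 9.38-fold lower on the LIFR KO array. Tslp, a cytokine of epithelial cells, had 1544 on the wildtype, 492 on the LIFR KO and 611 on the gp130 KO array. Il23a, the p19 subunit of interleukin 23, had 984 on the wildtype, 340.00 on the LIFR KO and 494 on the gp130 KO array. Il1a had 2185 on the wildtype, 783 on the LIFR KO and 552 on the gp130 KO array, and Csf2 (GM-CSF) 93.998 on the wildtype, 38.2 on the LIFR KO and 33.6 on the gp130 KO array. These genes were 3.14-fold, 2.89-fold, 2.79-fold and 2.46-fold lower on the LIFR KO array in the order given. Il15, which supports lymphocytes, went the other way, with 63.3 on the wildtype, 136 on the LIFR KO and 108 on the gp130 KO array, or 2.14-fold higher. In all, 5 of 13 measured genes of this list were at least 2-fold lower and 1 higher, with a median log2 ratio of -0.52. The near relatives Csf1 (0.071), Il1b (-0.55), Il18 (-0.14) and Il33 (-0.10) stayed within 2-fold.

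Some feedback genes of NF-kB, the transcription factor that drives many of these cytokines, were lower as well. Tnfaip3 (A20), an enzyme that shuts NF-kB signalling down, had 11258 on the wildtype, 4321 on the LIFR KO and 6214 on the gp130 KO array. Nfkbia, the inhibitor IkB-alpha, had 14216 on the wildtype, 5956 on the LIFR KO and 7632 on the gp130 KO array. Traf1, an adaptor of TNF receptors, had 5261 on the wildtype, 2221 on the LIFR KO and 2760.3 on the gp130 KO array, and the ubiquitin ligase Birc3 151 on the wildtype, 68.8 on the LIFR KO and 111 on the gp130 KO array. They were 2.61-fold, 2.39-fold, 2.37-fold and 2.19-fold lower on the LIFR KO array, and the gp130 KO array lay between the other arrays for each of them. Of 21 measured genes of NF-kB subunits and inhibitors these 4 (19.0%) were at least 2-fold lower, against 1.25% of all genes compared. In the same list 0 were at least 2-fold higher, and 18 had a ratio below 0, with a median of -0.36. The subunits themselves differed less: Nfkb1 had a log2 ratio of -0.058, Rela -0.036, Rel -0.36, Nfkb2 -0.59 and Relb -0.83. Other feedback inhibitors of the list were inside 2-fold too, with Zc3h12a at -0.80, Nfkbiz at -0.22, Nfkbib at 0.041, Nfkbie at 0.40 and Cyld at 0.63. Nfkbid, a further inhibitor gene that the list does not hold, was among the genes at least 2-fold lower. Ptgs2 (COX-2), the inducible enzyme of prostaglandin synthesis, had 17307 on the wildtype, 4666 on the LIFR KO and 7889 on the gp130 KO array, or 3.71-fold lower on the LIFR KO array. It was the only one of 7 measured genes of that pathway past 2-fold. With the normexp background correction, an alternative to the scanner software's own subtraction that draws dim signals together, Ccl7, Csf2, Birc3 and Il15 stayed inside 2-fold, at log2 ratios of -0.93, -0.50, -0.63 and 0.59. Birc3 also did with the arrays scaled to their medians.

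**Figure D2:**
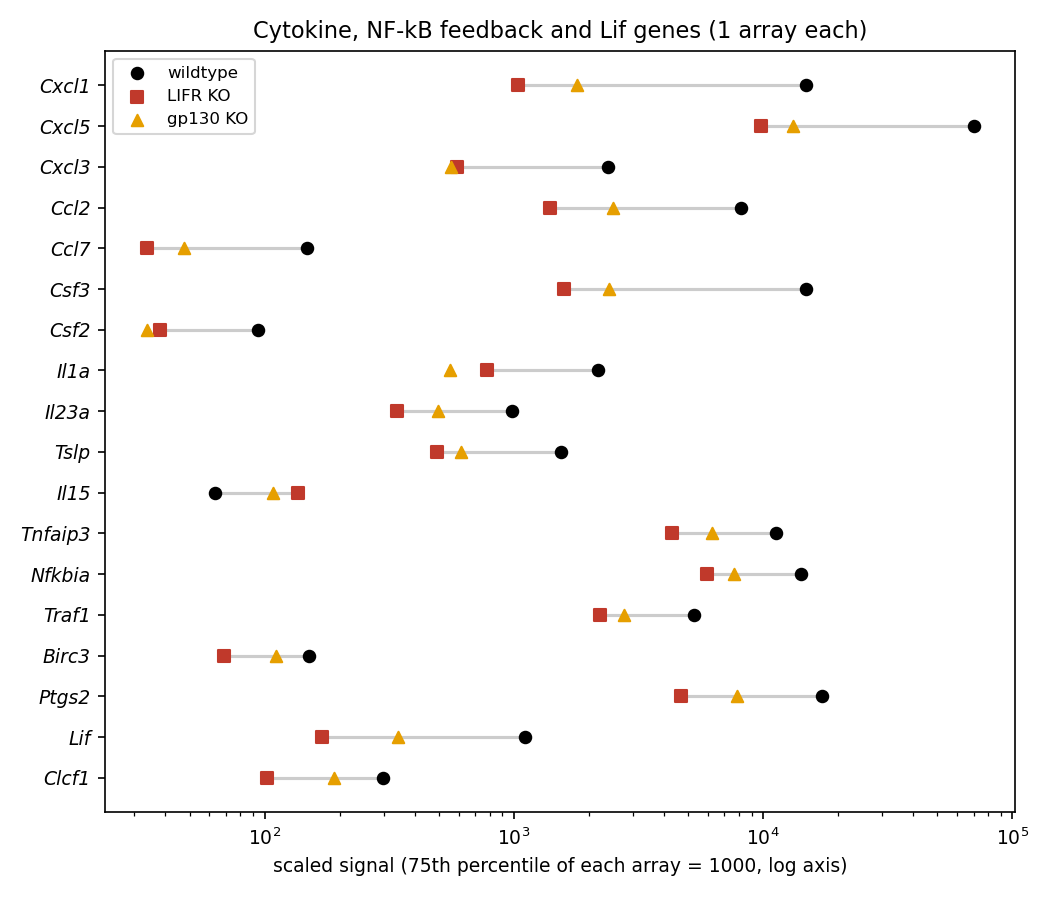
Scaled signal (x axis, log) of 18 cytokine, NF-kB feedback and Lif-family genes on the wildtype (black circle), LIFR KO (red square) and gp130 KO (orange triangle) array, 1 array each, with a grey line from the wildtype to the LIFR KO value. The wildtype value is the highest of the 3 for every gene drawn except Il15, for which it is the lowest. All genes drawn were past 2-fold between the wildtype and LIFR KO arrays, so the order of these arrays follows from the choice. The gp130 KO array is set against the same wildtype array.

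The 2 genes with the largest such differences for which the RefSeq promoter table (GRCm38.p6) holds an entry were Cxcl1 and Lif, the gene of the LIFR ligand, and their promoters are shown because they carry the letters of NF-kB and of AP-1, another factor of inflammatory genes. Each runs 5′ to 3′ on the plus strand from 250 bases before to 50 bases after the start site, with motif matches in capitals. The Cxcl1 promoter, chr5:90890995-90891294, held the NF-kB letters GGGANNTTC on both strands in 2 overlapping matches, the first starting at -71 from the start site. The Lif promoter, chr11:4257318-4257617, held the AP-1 letters TGANTCA at -228.
Cxcl1: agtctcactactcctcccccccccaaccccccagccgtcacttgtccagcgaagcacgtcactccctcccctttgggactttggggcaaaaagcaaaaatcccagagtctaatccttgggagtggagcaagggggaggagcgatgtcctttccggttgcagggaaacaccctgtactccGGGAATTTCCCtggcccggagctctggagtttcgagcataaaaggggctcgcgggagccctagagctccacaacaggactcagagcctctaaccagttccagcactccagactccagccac
Lif: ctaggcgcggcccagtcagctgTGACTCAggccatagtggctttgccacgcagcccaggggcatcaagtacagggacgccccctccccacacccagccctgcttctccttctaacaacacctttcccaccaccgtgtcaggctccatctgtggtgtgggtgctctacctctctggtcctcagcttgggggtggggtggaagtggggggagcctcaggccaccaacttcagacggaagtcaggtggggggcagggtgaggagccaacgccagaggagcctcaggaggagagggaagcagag
Csf3, Cxcl5 and Ccl2 had no entry.

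Over the promoters of the lower genes, 7.59% held the NF-kB letters, against 3.74% of the 13225 promoters of all genes compared that had an entry. The shares were 13.1% and 5.64% for AP-1 and 10.3% and 7.0% for the STAT letters TTCNNNGAA, searched on both strands, and 13.1% and 8.85% for the C/EBP letters TTGCNNAA. The E-box letters CACGTG were held by 5.52% of the promoters of the lower genes and 9.65% of those of all genes compared. For the CRE letters TGACGTCA these shares were 2.07% and 2.92%. Among the 11 lower genes with the NF-kB letters were Cxcl1, Cxcl3 and Nfkbia, and also Calhm2, Nkx2-5, Psg28 and Trp53. The AP-1 letters were found for 18 lower genes, among them Lif, Il1a, Tnfaip3, Mmp10, Mmp13 and Serpinb2. A match is a description of the letters, not a bound site. The promoters held by these groups numbered 145 for the lower genes, so 1 percentage point is 1 or 2 promoters.

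Lif itself led the ligands of the gp130 family. It gave 1109 on the wildtype, 169.8 on the LIFR KO and 343 on the gp130 KO array, or 6.53-fold lower on the LIFR KO array. Clcf1, a ligand of the CNTF receptor complex, which includes LIFR, had 298 on the wildtype, 103 on the LIFR KO and 189.9 on the gp130 KO array, or 2.91-fold lower. Both were highest on the wildtype array, which both knockout comparisons share. Il6 was well above background on the wildtype array only, and its signal on the LIFR KO array was at least 2.40-fold lower. Such a bound sets the bright signal against the dim probe's reading, or against the array's lowest well-measured signal (16.9 on the wildtype and 24.4 on the LIFR KO array) where that is higher. Osm was likewise measured on the wildtype array only, with a bound of 1.70-fold. Other measured ligands stayed within 2-fold: Il11 had 712, 768 and 813 on the wildtype, LIFR KO and gp130 KO array, Cntf 458, 579 and 548, Ctf1 493, 449 and 568 and Il27 520.4, 432 and 489. The list counted 2 of 7 measured genes lower and 0 higher, with a median log2 ratio of -0.13 that turned to 0.026 under 1 of 12 alternatives, the scaling to the median.

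No receptor of the family passed 2-fold, with 7 measured. Csf3r, the G-CSF receptor, had 35360.00 on the wildtype, 46864 on the LIFR KO and 38825 on the gp130 KO array, a log2 ratio of 0.41, beside the low Csf3 signal. Osmr, which pairs with gp130 for oncostatin M, had a log2 ratio of -0.10, Il6ra 0.29, Il11ra1 -0.15 and the leptin receptor Lepr 0.49. Cntfr and Il27ra were above background on neither array.

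Inside the cell, the pathway's kinases and STAT factors were also within 2-fold. Jak1, the main kinase bound to gp130, had 4176 on the wildtype, 4328 on the LIFR KO and 4335 on the gp130 KO array, and Jak2 2667 on the wildtype, 2724 on the LIFR KO and 2506 on the gp130 KO array. Stat3, the factor that carries the LIF signal, had 2606 on the wildtype, 3492 on the LIFR KO and 2424 on the gp130 KO array, or 1.34-fold higher on the LIFR KO array. Stat2, of interferon signalling, was 1.64-fold higher, at 1356 and 2227. The 2 STATs with a lower signal were Stat5b, with 27676 and 18967, and Stat6, with 3472 and 2419.9, while Stat5a was nearly equal, at 575 and 592. Tyk2 had a log2 ratio of 0.07, the phosphatase Ptpn11 (SHP2), which links gp130 to ERK, 0.16, Ptpn6 (SHP1) -0.27, and the STAT inhibitor Pias1 0.60.

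Among the feedback inhibitors Socs3 alone passed 2-fold. Its signal was 3633 on the wildtype, 9624 on the LIFR KO and 2999 on the gp130 KO array, which is 2.65-fold higher on the LIFR KO and 1.21-fold lower on the gp130 KO array. The gene induced by STAT3 to restrain gp130 was thus brightest on the array labelled as lacking LIFR. Cish, an inhibitor of STAT5 signalling, had 366 on the wildtype, 609.6 on the LIFR KO and 181 on the gp130 KO array, the same order of the 3 arrays at a smaller ratio. Of the other inhibitors Socs7 had a log2 ratio of 0.67, Socs1 -0.47, Socs5 -0.28, Socs4 -0.26, Socs6 -0.064 and Socs2 -0.0035. In all 1 of 19 measured genes of this list passed 2-fold, with a median of 0.040, which fell below 0 under 1 of the alternatives.

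Known targets of LIF and STAT3 went both ways, with 4 of 20 measured genes at least 2-fold higher, 3 lower and a median log2 ratio of 0.11. Besides Socs3, the higher genes were Fos, Pim1 and Junb. Fos, a subunit of AP-1, had 71.3 on the wildtype, 312 on the LIFR KO and 41.1 on the gp130 KO array, or 4.38-fold higher on the LIFR KO array. Pim1, a survival kinase, had 69.7 on the wildtype, 238 on the LIFR KO and 114 on the gp130 KO array, and Junb, a partner of Fos, 929.7 on the wildtype, 2327 on the LIFR KO and 942 on the gp130 KO array. They were 3.41-fold and 2.5-fold higher. The lower genes were Cebpd, Myc and Ier3. Cebpd, a C/EBP factor of the acute-phase response, had 3851 on the wildtype, 982 on the LIFR KO and 1859.6 on the gp130 KO array, Myc, a driver of growth, 16612 on the wildtype, 4815 on the LIFR KO and 11955 on the gp130 KO array, and the survival gene Ier3 9854 on the wildtype, 3661 on the LIFR KO and 5399 on the gp130 KO array. These were 3.92-fold, 3.45-fold and 2.69-fold lower on the LIFR KO array. The measured targets known from pluripotency were inside 2-fold, with Klf4 at a log2 ratio of 0.19, Tfcp2l1 at 0.031 and Klf5 at -0.64, and so was Mcl1, at 0.0062. Pim1 was inside 2-fold under normexp, at 0.94, and the log2 ratio of Fos went down to 1.21 among the alternatives.

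The AP-1 family was split by subunit. Fosl1 (Fra-1) had 4869.6 on the wildtype, 1679 on the LIFR KO and 2167 on the gp130 KO array, or 2.9-fold lower on the LIFR KO array. Fosb had 271 on the wildtype, 569.5 on the LIFR KO and 201 on the gp130 KO array and Mafk, a small partner of related factors, 1083 on the wildtype, 2902 on the LIFR KO and 817 on the gp130 KO array. Both were higher on the LIFR KO array, 2.1-fold and 2.68-fold, and lowest on the gp130 KO array. Jun lay inside 2-fold on the lower side, at 3709 and 1928, and Jund at 64277 and 75559. In this family 4 of 11 measured genes were higher and 1 lower.

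Genes that respond early to ERK were split as well. Egr1, an immediate early factor, had 703 on the wildtype, 160.3 on the LIFR KO and 256 on the gp130 KO array, or 4.38-fold lower on the LIFR KO array, and Phlda1, a feedback gene of growth factor signalling, had 31987 on the wildtype, 14572 on the LIFR KO and 16577 on the gp130 KO array, or 2.2-fold lower. The ERK phosphatase Dusp2 had 402 on the wildtype, 865 on the LIFR KO and 255 on the gp130 KO array, or 2.15-fold higher. The usual ERK feedback genes were closer to equal: Dusp6 had a log2 ratio of -0.83, Dusp4 0.21, Spry4 -0.26, Etv4 -0.23 and Etv5 0.35. Of 21 measured genes 1 was higher and 3 lower, Ier3 included, with a median of -0.042 that rose above 0 under 2 alternatives. Ligands and receptors of the EGF family had 0 of 12 measured genes past 2-fold and a median of -0.26. Fosb and Dusp2 were inside 2-fold under normexp, at 0.83 and 0.87, and Phlda1 with the arrays scaled to their medians, at -0.97.

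Myc and a repressor that competes for its partner stood on opposite sides. Mxd1, which binds the MYC partner MAX and represses MYC's sites, had 430.2 on the wildtype, 1173 on the LIFR KO and 667 on the gp130 KO array, or 2.73-fold higher on the LIFR KO array, where Myc was 3.45-fold lower. Other members that antagonise MYC were inside 2-fold: Mnt had 2792 and 5039 on the wildtype and the LIFR KO array, Mxd3 407 and 753, and Mxd4 186 and 273. Mga had a log2 ratio of -0.038 and Max 0.26, and Mxi1 was above background on neither array. Of 10 measured genes of the network 1 was higher and 1 lower.

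On the higher side, genes linked to growth arrest and cell death were among those with the largest differences. Bmf, a BH3-only protein that promotes apoptosis, had 157 on the wildtype, 1881 on the LIFR KO and 561 on the gp130 KO array. It was 11.986-fold higher on the LIFR KO array, the largest ratio upward, and 3.58-fold higher on the gp130 KO array. Its log2 ratio for the LIFR KO array was 3.58, with a scanner error of 0.208, and went down to 2.83 among the alternatives. Bbc3 (PUMA), another BH3-only gene, had 1059.8 on the wildtype, 2702 on the LIFR KO and 945 on the gp130 KO array, or 2.55-fold higher on the LIFR KO array alone. Bcl2l11 (BIM) was inside 2-fold, at 145 and 221. The members that protect cells hardly differed, with Bcl2l1 at a log2 ratio of -0.036 and Bcl2 at -0.081. Of 13 measured genes of the BCL2 family 2 passed 2-fold, both higher. Dedd2, a death effector domain protein, had 601 on the wildtype, 3216 on the LIFR KO and 1105 on the gp130 KO array, or 5.35-fold higher.

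A list of FOXO targets and genes of growth factor withdrawal, written with earlier results of these arrays known, had 9 of 25 measured genes at least 2-fold higher and 0 lower, with a median log2 ratio of 0.77. Over all genes compared 2.02% were higher and 1.25% lower. The count of 9 takes Trp53inp1 by its brighter probe although its probes disagree. Ypel2, of a family of small zinc-binding proteins, had 32.2 on the wildtype, 181 on the LIFR KO and 67.3 on the gp130 KO array. Ccng2, a cyclin of quiescent cells, had 119.8 on the wildtype, 359.6 on the LIFR KO and 321 on the gp130 KO array, and Fbxo32 (atrogin-1), a ubiquitin ligase that FOXO factors induce, 137 on the wildtype, 359 on the LIFR KO and 321 on the gp130 KO array. The folds on the LIFR KO array were 5.62, 3.003 and 2.62, all upward. Hbp1, a repressor of proliferation genes, had 898 on the wildtype, 2347 on the LIFR KO and 2083 on the gp130 KO array, or 2.61-fold higher, and Txnip, which restrains glucose uptake, 539 on the wildtype, 1399 on the LIFR KO and 1017 on the gp130 KO array, or 2.6-fold higher. For Ccng2, Fbxo32 and Hbp1 the gp130 KO array lay close to the LIFR KO array and above the wildtype. Trp53inp1, a p53-induced gene, differed between its probes. The brighter had 83.3 and 369 on the wildtype and the LIFR KO array, or 4.43-fold higher, and the other 59.5 and 61.4, so no direction is given. The insulin receptor substrate Irs1 (-0.38), Cited2 (-0.24) and Arrdc3 (-0.55) were the 3 measured members with a log2 ratio below 0. Under normexp Ypel2 and Fbxo32 were just inside 2-fold, at 0.99 and 0.95.

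Genes of the circadian clock were higher together. Per1, a repressor of the clock, had 1511 on the wildtype, 10492 on the LIFR KO and 1248 on the gp130 KO array, which is 6.94-fold higher on the LIFR KO and 1.21-fold lower on the gp130 KO array. Cry2, which acts with the PER proteins, had 721 on the wildtype, 3177 on the LIFR KO and 805 on the gp130 KO array. Per2 had 49.2 on the wildtype, 152 on the LIFR KO and 62.7 on the gp130 KO array, the nuclear receptor Nr1d1 (REV-ERB alpha) 86.8 on the wildtype, 217 on the LIFR KO and 118 on the gp130 KO array, and Ciart, a further repressor, 857 on the wildtype, 1779.7 on the LIFR KO and 821 on the gp130 KO array. These were 4.41-fold, 3.08-fold, 2.5-fold and 2.08-fold higher on the LIFR KO array. For all 5 genes the gp130 KO signal was far nearer to the wildtype than to the LIFR KO signal. Of 18 measured clock genes these 5 were at least 2-fold higher and 0 lower, and 16 had a ratio above 0, with a median of 0.60. The activators Clock and Arntl had log2 ratios of -0.055 and 0.21, and the output genes Dbp and Tef 0.59 and 0.97. Per2, Nr1d1 and Ciart were inside 2-fold under normexp, at 0.67, 0.72 and 0.97. The sources used here do not state when the cultures were collected.

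**Figure D3:**
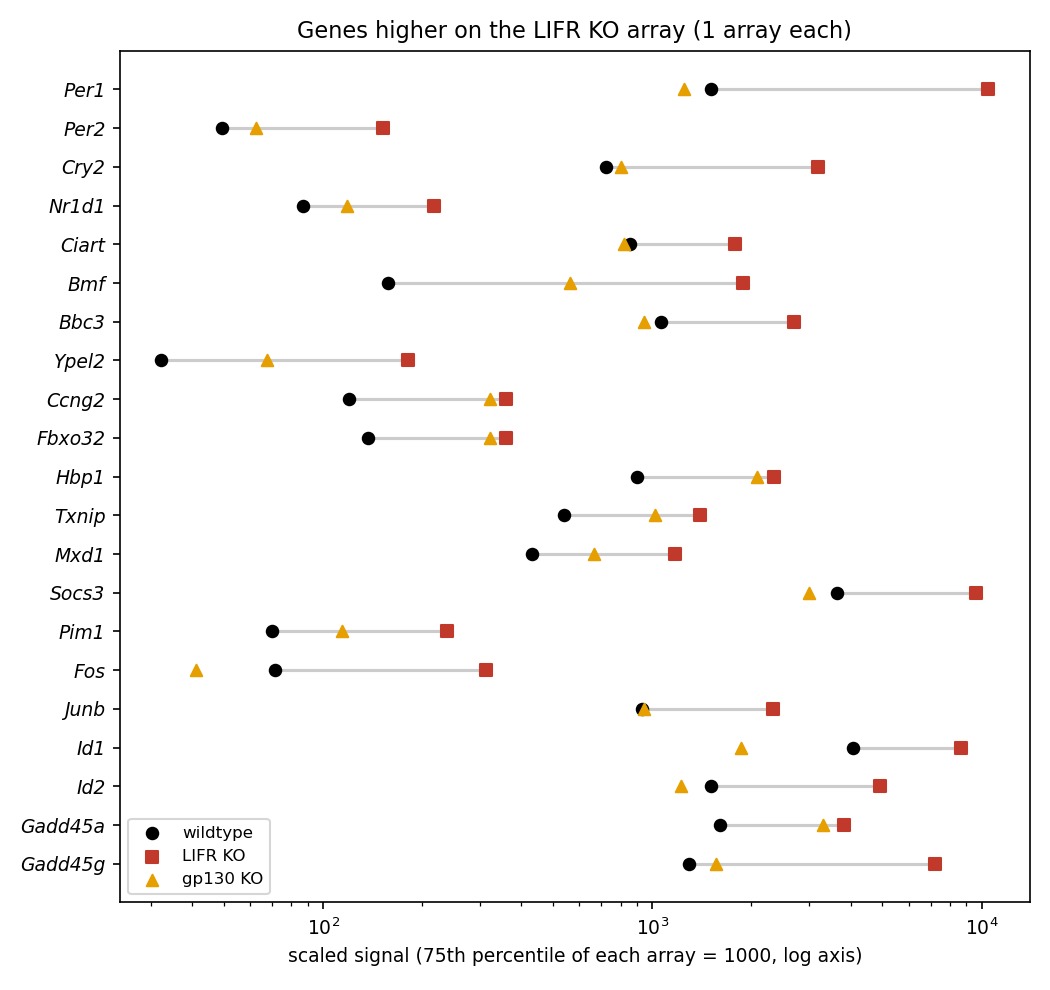
Scaled signal (x axis, log) of 21 clock, cell death, withdrawal, LIF-target, ID and GADD45 genes on the wildtype (black circle), LIFR KO (red square) and gp130 KO (orange triangle) array, 1 array each, with a grey line from the wildtype to the LIFR KO value. The LIFR KO value is the highest for every gene drawn, and all were chosen as at least 2-fold higher there than on the wildtype array. The gp130 KO value lies near it for Ccng2, Fbxo32, Hbp1 and Gadd45a, and at or below the wildtype value for Per1, Ciart, Bbc3, Socs3, Fos, Id1 and Id2.

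Frat1, which binds the kinase GSK3 in the Wnt pathway, had the ratio next after Bmf, with 23.3 on the wildtype, 248 on the LIFR KO and 82.4 on the gp130 KO array, or 10.6-fold higher on the LIFR KO array. Neither rank nor size held under normexp, where its log2 ratio was 1.43, against 3.41. Its wildtype signal was close to the lowest signal well above background there, 16.9. The neighbouring paralogue Frat2 had a main probe with 180.2 and 553 on the wildtype and the LIFR KO array, or 3.07-fold higher, while its other probe had 46.7 and 61.8. Ccn4 (WISP1), a secreted Wnt target, had 620.4 on the wildtype, 1814 on the LIFR KO and 1349 on the gp130 KO array, or 2.92-fold higher. The widely used reporters of Wnt signalling were not past 2-fold: Axin2, Lef1, Lgr5 and Sp5 were above background on neither array, Rnf43 had a log2 ratio of 0.61, Znrf3 0.13 and Ccnd1 -0.75. Of 12 measured genes 3 were higher and 0 lower.

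The promoters of Frat1 and Per1 are shown because these genes had the largest ratios upward after Bmf and carry a forkhead and an E-box motif, the letters bound by FOXO and by clock factors. The promoters of Bmf itself held neither of these motifs and are not shown. Their only matches were the C/EBP letters, at -202 and at -45 of different promoters. The Frat1 promoter, chr19:41829720-41830019, held the forkhead letters GTAAACA on the opposite strand at 2 from the start site. Of 2 Per1 promoters in the table, the one shown, chr11:69098699-69098998, held the E-box CACGTG at -166 and the C/EBP letters TTGCNNAA on the opposite strand at -24. Both genes lie on the plus strand of GRCm38.p6, in the same layout as above. The other Per1 promoter, chr11:69099902-69100201, held no E-box and the STAT letters at -210.
Frat1: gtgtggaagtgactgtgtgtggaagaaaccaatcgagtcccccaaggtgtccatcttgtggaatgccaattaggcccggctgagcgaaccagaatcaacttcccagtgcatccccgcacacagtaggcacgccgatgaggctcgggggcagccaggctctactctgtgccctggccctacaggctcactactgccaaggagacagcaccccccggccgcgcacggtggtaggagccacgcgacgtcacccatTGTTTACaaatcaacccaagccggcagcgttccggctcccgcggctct
Per1: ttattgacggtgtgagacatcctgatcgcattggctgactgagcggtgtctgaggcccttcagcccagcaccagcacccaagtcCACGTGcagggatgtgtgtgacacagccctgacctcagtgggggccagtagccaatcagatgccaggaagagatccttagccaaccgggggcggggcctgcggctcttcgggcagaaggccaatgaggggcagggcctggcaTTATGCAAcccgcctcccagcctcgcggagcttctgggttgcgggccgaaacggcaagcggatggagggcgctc
Over the 254 promoters of the genes at least 2-fold higher, 5.91% held the forkhead letters, against 2.65% of the promoters of all genes compared and 4.14% of those of the lower genes. The higher genes with these letters included Frat1, Frat2, Hbp1, Txnip, Bbc3, Pim1 and Junb. The E-box, found for Per1, Ciart and Gadd45g among others, was held by 9.45% of the promoters of the higher genes and 9.65% of those of all genes compared. In the same order, the STAT letters were held by 5.12% and 7.0%, the CRE letters TGACGTCA by 2.76% and 2.92%, and the C/EBP letters by 8.66% and 8.85%.

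The inhibitors of differentiation and other targets of BMP signalling had 4 of 12 measured genes at least 2-fold higher and 0 lower. Of all genes compared 2.02% were higher and 1.25% lower. Id1, which blocks bHLH factors and is known in embryonic stem cells as a BMP target, had 4065 on the wildtype, 8681 on the LIFR KO and 1858 on the gp130 KO array, or 2.14-fold higher on the LIFR KO and 2.19-fold lower on the gp130 KO array. Id2 had 1505 on the wildtype, 4918 on the LIFR KO and 1221 on the gp130 KO array, or 3.27-fold higher on the LIFR KO array. Hey1, a repressor induced by Notch and BMP, had 49.3 on the wildtype, 178 on the LIFR KO and 79.2 on the gp130 KO array, and Smad6, an inhibitor of BMP signalling, 164 on the wildtype, 411 on the LIFR KO and 257 on the gp130 KO array. They were 3.62-fold and 2.5-fold higher. Smad7 lay just inside 2-fold, with a log2 ratio of 0.99, while Id3 had 0.30, Id4 -0.74, Msx1 -0.52 and Msx2 -0.51. Hey1 was inside 2-fold under normexp, at 0.87, and Id1 fell just short of 2-fold there.

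Proteases and the plasminogen system held differences in both directions. Adamts1, a protease of the extracellular matrix, had 2184 on the wildtype, 572 on the LIFR KO and 910.5 on the gp130 KO array, Mmp10 2917 on the wildtype, 942 on the LIFR KO and 1053 on the gp130 KO array, and Adamts4 550.1 on the wildtype, 225 on the LIFR KO and 316 on the gp130 KO array. They were 3.82-fold, 3.1-fold and 2.44-fold lower on the LIFR KO array, and the gp130 KO array was lower than the wildtype for each. Hyal1, an enzyme that digests hyaluronan, had 62.7 on the wildtype, 366 on the LIFR KO and 84.4 on the gp130 KO array. Plat, an activator of plasminogen, had 124 on the wildtype, 391 on the LIFR KO and 146 on the gp130 KO array. These were 5.83-fold and 3.16-fold higher on the LIFR KO array. Their log2 ratios of 2.54 and 1.66 went down to 1.37 and 1.02 among the alternatives. Of 17 measured genes 3 were higher and 5 lower, with a median of -0.53. The receptor Plaur and its ligand Plau stayed inside 2-fold, at log2 ratios of -0.53 and -0.68.

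No measured pluripotency gene was past 2-fold in either direction. Pou5f1 (50.2 on the wildtype and 33.3 on the LIFR KO array) and Esrrb (81.1 and 62.5) were dim. The lowest signals well above background were 16.9 and 24.4, so a lower signal of such genes could hardly be measured. In the list of the naive state 0 of 10 measured genes passed, with a median log2 ratio of -0.030, which changed sign under 4 of 12 alternatives. Klf5 had 5456 on the wildtype, 3491 on the LIFR KO and 4378 on the gp130 KO array, and Stat3 was given above. Of 10 measured genes of the general list 0 passed, with a median of -0.16 that turned to 0.094 under 1 of them. Lin28a had 1172 on the wildtype, 784 on the LIFR KO and 1353 on the gp130 KO array, and Mybl2 15269.6 on the wildtype, 14585 on the LIFR KO and 15333 on the gp130 KO array. Many members, Zfp42 and Sox2 among them, were above background on neither array, 7 of 18 of the naive and 5 of 16 of the general list. The counts thus cover only part of each list.

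Epithelial genes were measured almost throughout, 23 of 24, with 2 higher, 0 lower and a median of 0.15. Prss8, a membrane serine protease, had 357 on the wildtype, 1009 on the LIFR KO and 449 on the gp130 KO array, or 2.83-fold higher on the LIFR KO array. Cldn4, a tight junction protein, had 209 on the wildtype, 471 on the LIFR KO and 248 on the gp130 KO array, or 2.26-fold higher, but its log2 ratio went down to 0.81 among the alternatives. It was inside 2-fold under normexp and under both stricter rules on stray signal. Grhl3, an epithelial transcription factor outside the list, had 108 on the wildtype, 518 on the LIFR KO and 244 on the gp130 KO array, or 4.82-fold higher, with a log2 ratio of 2.27 that went down to 1.49. Snai1, a repressor of E-cadherin, had 1064 on the wildtype, 4664 on the LIFR KO and 1138 on the gp130 KO array, or 4.38-fold higher, while its target Cdh1 had a log2 ratio of 0.24, Vim 0.13 and Fn1 0.10. Col1a1, the chain of collagen I, had 113 on the wildtype, 376 on the LIFR KO and 153 on the gp130 KO array, or 3.32-fold higher, and Col1a2, the partner chain, a log2 ratio of -0.016. Among the alternatives the log2 ratio of Col1a1 went down from 1.73 to 1.105. The fibroblast markers are given with the cell types above, and their part in this result was not tested.

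**Figure D4:**
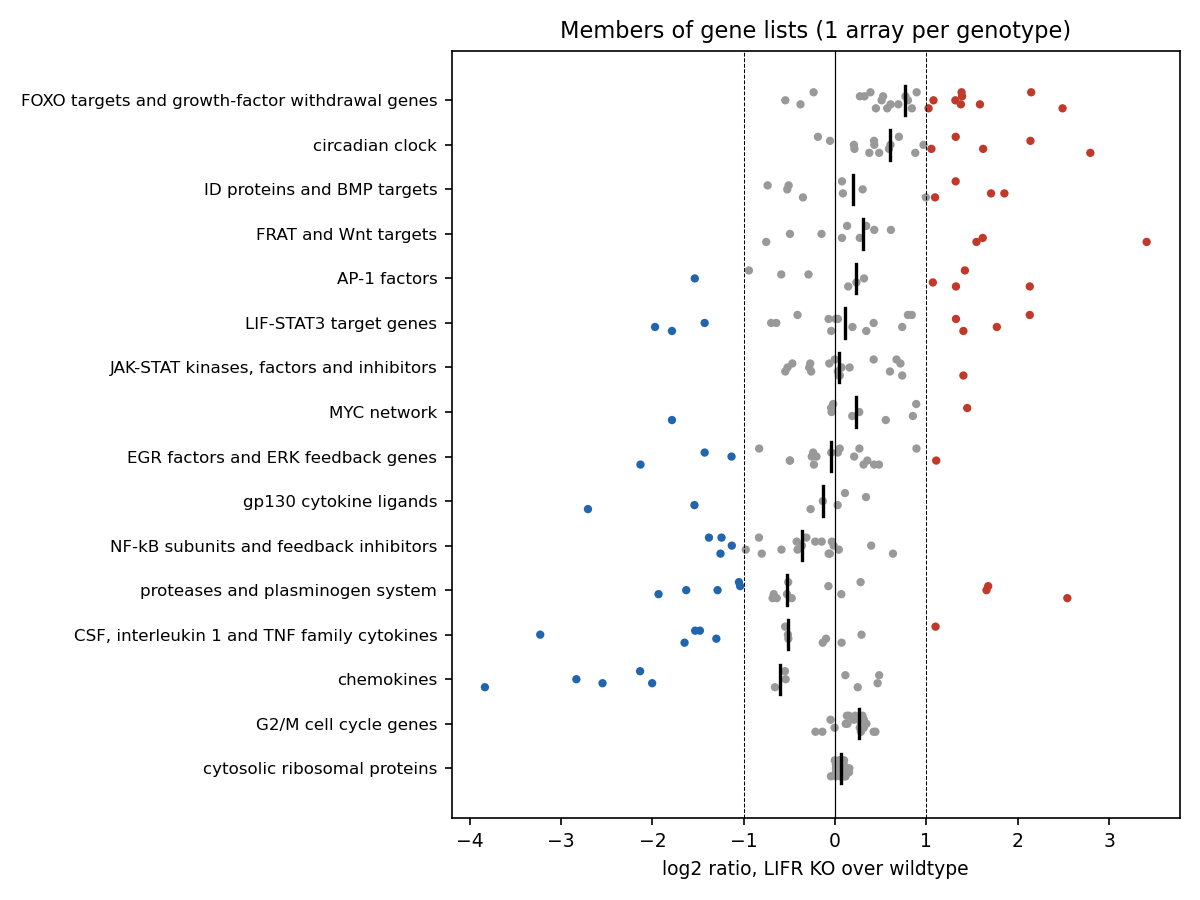
Log2 ratio of LIFR KO over wildtype (x axis) for the measured members of 16 gene lists (y axis), with 1 point per gene, red at least 2-fold higher and blue at least 2-fold lower, a black bar at each list's median and dashed lines at 2-fold, from 1 array per genotype. Chemokine and cytokine genes reach farthest to the left, clock and FOXO or withdrawal genes lie mostly to the right, and the 27 ribosomal protein genes cluster at 0.

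Lipid metabolism genes leaned upward. Of 25 measured genes of cholesterol and fatty acid synthesis 22 had a ratio above 0, with a median log2 ratio of 0.35, but 1 passed 2-fold. That gene was Insig1, which holds the SREBP factors back, with 587 on the wildtype, 1709 on the LIFR KO and 969 on the gp130 KO array, or 2.91-fold higher on the LIFR KO array. The synthesis enzyme Sqle had a log2 ratio of 0.47 and Mvd 0.83. Cpt1a, which carries fatty acids into mitochondria, had 608 on the wildtype, 2397 on the LIFR KO and 2010.3 on the gp130 KO array, or 3.95-fold higher, and was the only one of 14 measured genes of fatty acid oxidation past 2-fold. The gp130 KO signal of Cpt1a was close to the LIFR KO signal.

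Stress and interferon lists had few members past 2-fold, with 2 of 21 measured genes of the amino acid stress response and 2 of 23 interferon-stimulated genes higher and 0 lower. Ddit4 (REDD1), an inhibitor of mTORC1, had 6182 on the wildtype, 17955 on the LIFR KO and 8147 on the gp130 KO array, or 2.9-fold higher on the LIFR KO array. Slc7a3, a transporter of basic amino acids, was 2.18-fold higher, at 50.6 and 110.2. The other genes of the amino acid stress response stayed inside 2-fold, among them Asns at -0.059, Trib3 at -0.72 and Chac1 at 0.22. Irf1, an interferon-regulatory factor, had 7003 on the wildtype, 16482 on the LIFR KO and 9309 on the gp130 KO array, or 2.35-fold higher, and the antiviral gene Rsad2 was 2.87-fold higher, at dim signals of 26.7 and 76.7. Ifit1 had a log2 ratio of -0.089 and Isg15 0.56. The chaperone gene Hspa1a had 258 on the wildtype, 583 on the LIFR KO and 491 on the gp130 KO array, or 2.27-fold higher. Slc30a1, which exports zinc, had 622 on the wildtype, 246 on the LIFR KO and 124 on the gp130 KO array, or 2.53-fold lower, beside Mt1 at -0.13 and Mt2 at -0.34. Slc7a3, Rsad2 and Hspa1a were inside 2-fold under normexp, at 0.35, 0.50 and 0.85.

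The targets of p53 had 3 of 20 measured genes higher and 0 lower: Bbc3, Gadd45a and, by its brighter probe only, Trp53inp1. The shares over all genes compared were 2.02% and 1.25%. Gadd45a, a gene of growth arrest, had 1603 on the wildtype, 3809 on the LIFR KO and 3302 on the gp130 KO array, or 2.38-fold higher on the LIFR KO array. Cdkn1a (p21) had a log2 ratio of 0.094 and Mdm2 -0.15, both inside 2-fold. Trp53, the p53 gene itself, was among the genes at least 2-fold lower. Of 11 measured genes of motile cilia 2 were higher and 0 lower, both regulators. Foxj1, the master factor of ciliogenesis, had 68.3 on the wildtype, 388 on the LIFR KO and 249 on the gp130 KO array, or 5.69-fold higher, and Ccno, needed for the amplification of centrioles, 25.9 on the wildtype, 115 on the LIFR KO and 40.6 on the gp130 KO array, or 4.45-fold higher. Among the alternatives the log2 ratio of Foxj1 went down to 1.62, and Ccno was inside 2-fold under normexp, at 0.55. Other regulators were inside 2-fold, with Rfx2 at 0.34, Rfx3 at -0.35 and Mcidas at -0.23, as were the measured structural genes, and 10 were above background on neither array. Klf10, induced by TGF-beta, was the only one of 14 measured Kruppel-like factors past 2-fold, with 6648 on the wildtype, 15211 on the LIFR KO and 7271 on the gp130 KO array, or 2.29-fold higher.

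Of genes induced by glucocorticoids 2 of 16 measured were higher and 2 lower, all 4 given above (Per1, Ddit4, Cebpd and Nfkbia), and Tsc22d3 and Fkbp5, usual reporters, had log2 ratios of -0.44 and 0.10. Mucosal defence and acute-phase genes had 0 of 11 measured past 2-fold, with Wfdc2 at 89095 on the wildtype, 93296 on the LIFR KO and 91365 on the gp130 KO array and Pigr at 25134 on the wildtype, 31999 on the LIFR KO and 22504 on the gp130 KO array.

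The remaining genes of the far ends belong to no list. On the higher side Gadd45g, a relative of Gadd45a, had 1288 on the wildtype, 7220.1 on the LIFR KO and 1559 on the gp130 KO array, or 5.61-fold higher on the LIFR KO array. The kinase gene Dyrk3 had 1759.9 on the wildtype, 8046 on the LIFR KO and 3109.6 on the gp130 KO array, and the ubiquitin ligase gene Mylip, which marks the LDL receptor for degradation, 237 on the wildtype, 1119 on the LIFR KO and 421 on the gp130 KO array. Zkscan14, a zinc finger gene, had 158 on the wildtype, 942 on the LIFR KO and 260.1 on the gp130 KO array. They were 4.57-fold, 4.72-fold and 5.95-fold higher. Dim probes gave the ratios of the kinesin gene Kifc2 (35.9 and 189), the sodium-calcium exchanger Slc8a1 (19.2 and 101) and the protease Tmprss11f (31.3 and 148). Under normexp these 3 were inside 2-fold, at log2 ratios of 0.97, 0.60 and 0.71. On the lower side Ankrd1, a target of the YAP factors, had 8846 on the wildtype, 2334 on the LIFR KO and 5294 on the gp130 KO array, or 3.79-fold lower. Ccdc71l had 476 on the wildtype, 127 on the LIFR KO and 457 on the gp130 KO array, or 3.75-fold lower. Mir100hg, the host gene of a microRNA cluster, had 114 on the wildtype, 28.6 on the LIFR KO and 86.6 on the gp130 KO array and was inside 2-fold under normexp, at -0.89.

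A further 1392 genes were well above background on 1 of the arrays only, 1241 on the wildtype and 151 on the LIFR KO array. Of their bounds 101 put the LIFR KO signal at least 2-fold above the wildtype signal and 52 at least 2-fold below it. The 101 come from the 151 genes and the 52 from the 1241. The lowest well-measured signal, which limits a bound, was 16.9 on the wildtype and 24.4 on the LIFR KO array. Downward bounds were thus harder to reach, and the 2 counts are not to be set against each other. The largest upward were those of Hhla1, with 13.2 on the wildtype and 117 on the LIFR KO array, Npffr1, with 17.1 and 99.4, and Peg12, a paternally expressed gene, with 6.39 and 90.2. For Hhla1 the LIFR KO signal was at least 6.94-fold higher, for Npffr1 at least 5.81-fold and for Peg12 at least 5.33-fold. The largest downward were those of Olfr1487, with 157 and 8.15, Rinl, with 104 and 24.1, and Akna, with 114 and 27.2, or at least 6.44-fold, 4.26-fold and 4.19-fold lower.

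Genes of proliferation and translation were nearly all inside 2-fold. Ribosomal protein genes had 0 of 27 measured past 2-fold and a median log2 ratio of 0.067. Rplp0 had 221038 on the wildtype, 238850.00 on the LIFR KO and 260733 on the gp130 KO array. Of 21 measured genes of G2 and mitosis 0 passed 2-fold, but 17 had a ratio above 0. Their median was 0.26, which stayed above 0 under all 12 alternatives. Cdc20, an activator of mitotic exit, had 23475 on the wildtype, 28908 on the LIFR KO and 28589.7 on the gp130 KO array. Of 23 genes of G1 and S phase 1 passed, the E2F factor E2f2, with 1135 on the wildtype, 2578 on the LIFR KO and 1316 on the gp130 KO array, or 2.27-fold higher on the LIFR KO array. The DNA helicase genes Mcm2 to Mcm7 had log2 ratios from 0.038 to 0.21, and Pcna 0.10.

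Histone genes, many of them made in S phase, differed from this picture. The group was formed from gene symbols after H2ac22 had appeared among the 15 lowest genes, so its count is a description. It holds core histones and the linker histones H1. H2ac22 had 107379 on the wildtype, 30494 on the LIFR KO and 93845 on the gp130 KO array, or 3.52-fold lower on the LIFR KO and 1.14-fold lower on the gp130 KO array. Of 37 measured histone genes 18 were at least 2-fold lower, 0 higher and 30 below 0, with a median log2 ratio of -0.80 against -0.19 for gp130 KO over wildtype. Among all genes compared 1.25% were at least 2-fold lower. In the H2A class 8 of 11 were lower, with a median of -1.57, among them H2ac12 with 120306 on the wildtype, 38200.4 on the LIFR KO and 103911 on the gp130 KO array and H2ac19 with 64476 on the wildtype, 21961 on the LIFR KO and 56066 on the gp130 KO array. The H4 class had 4 of 8 lower, H2B 3 of 7, H1 2 of 5 and H3 1 of 6. H2bc14 had 3136 on the wildtype, 974 on the LIFR KO and 2104 on the gp130 KO array, H4c14 5026 on the wildtype, 1985 on the LIFR KO and 3279.98 on the gp130 KO array, and H3c13 11729.9 on the wildtype, 3935 on the LIFR KO and 8817 on the gp130 KO array. Not every member differed: H2ac8 had 186, 190.5 and 225 on the wildtype, LIFR KO and gp130 KO array, H3c3 4283, 4728 and 4819, and H1f2 754, 911 and 1223. Copies of a histone class are near identical in sequence, so that probes can read each other's transcripts, and the H2A members may be counts of few signals. Slbp, which binds the end of histone transcripts, had a log2 ratio of 0.11.

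**Figure D5:**
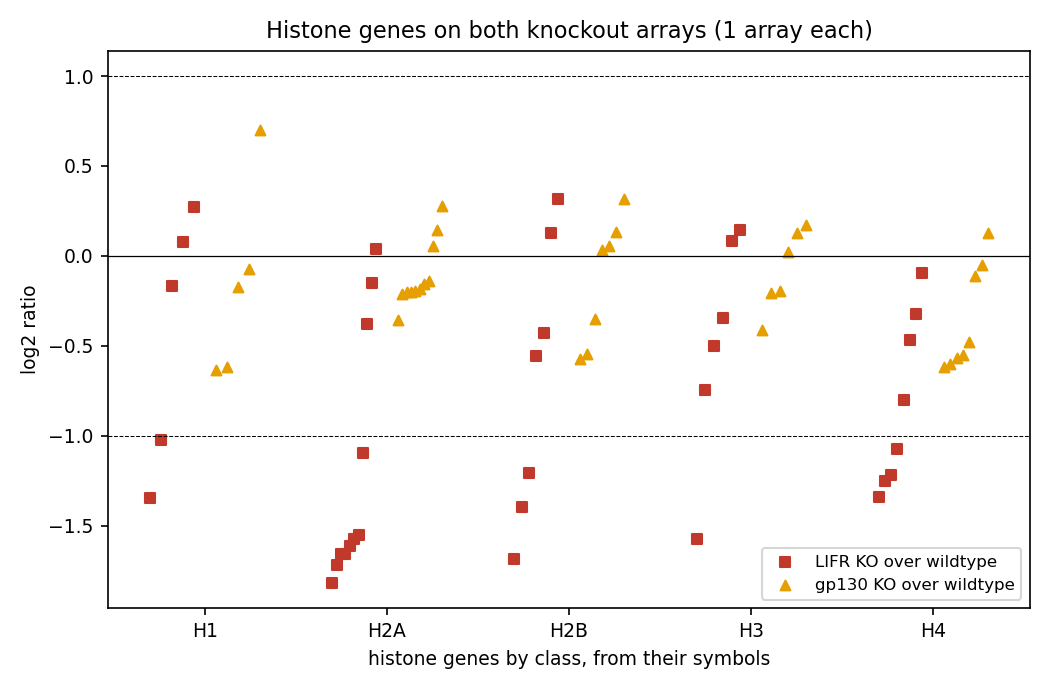
Log2 ratio (y axis) of 37 histone genes by class (x axis) for LIFR KO over wildtype (red squares) and gp130 KO over wildtype (orange triangles), with 1 point per gene in order of its ratio and dashed lines at 2-fold, from 1 array each; both ratios use the same wildtype array. Most H2A genes lie between -1.82 and -1.10 for the LIFR KO array, while all gp130 KO ratios lie between -0.63 and 0.70.

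The ratios of the 2 knockouts share the wildtype array, so values that stand apart on it move both, and no overlap or correlation between them is given. Side by side, Cxcl1, Csf3, Cxcl5, Lif and Ccl2 were 8.26-fold, 6.16-fold, 5.34-fold, 3.23-fold and 3.27-fold lower on the gp130 KO array, against 14.3-fold, 9.38-fold, 7.13-fold, 6.53-fold and 5.84-fold on the LIFR KO array. Between the knockout arrays themselves, Per1, Socs3, Fos, Id1 and Snai1 were brighter on the LIFR KO array, with 10492 against 1248, 9624 against 2999, 312 against 41.1, 8681 against 1858 and 4664 against 1138. These genes were taken from those already higher on the LIFR KO than on the wildtype array. The same LIFR KO readings are used again, so this is a description and no separate support.

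Of the 13079 genes compared, 3212 had a further probe well above background on both arrays. The log2 ratios of these 3832 further probes differed from the main probe by a median of 0.155. Of the genes past 2-fold, 63 had 68 further probes well above background on both arrays. Of these probes 59 had the same sign and 21 were themselves past 2-fold, and 14 differed from the main probe by over 2-fold.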

How the data were processed

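Total RNA of the 3 cultures was labelled with Cy3 and read on single-colour arrays, per the labels. Design 026655, built on mm9, was extracted with Feature Extraction 11.0.1.1 (protocol GE1_1100_Jul11), per the file headers, while the submitters' processing notes name version 9.1. The deposited intensity is the processed signal, background-subtracted and not normalised between arrays, per the file headers. The deposited flags, values of 0 or 1, mark spots well above background and outliers. The authors' deposited log2 matrix had a median of 5.38 in both columns and correlated with the log2 processed signal across probes at r = 0.996 (wildtype) and 0.999 (LIFR KO). The sources used here do not state its normalisation method or floor. It was used as an alternative.

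Outlier spots (97 and 222) and spots with a local background over 2 times the array median on either array were left out, and spots of a probe were averaged. Each array was scaled to the 75th percentile of its 39429 probes (621 and 683). RefSeq accessions named 27234 probes (69.1%). A gene was read from its probe with the highest mean among those well above background on both arrays. Genes past 2-fold were counted, with no test. Of 39 gene lists, members are described by counts and medians. The members and lists were chosen with earlier results of these data known.

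Named in the text are Lifr, Il6st, the gp130 and JAK-STAT lists, in each direction the 15 largest ratios that also went the same way by at least 1.5-fold under normexp, up to 6 list members past 2-fold, and the 3 largest bounds each way. Clones and predicted genes are not named, and a few genes that this rule takes are not reported here. List members inside 2-fold, and the histone, Gadd45, Ypel, Zfp, Mmp and Hox genes, were named after their values were seen. The NF-kB motif was shortened to 9 letters before its matches were counted. Normexp (limma 3.58.1, R 4.3.3, offset 50) used the deposited median spot and background intensity, in place of the mean named in the plan. Other steps ran in Python 3.11.15 with pandas 2.3.3, and the counting was tested on simulated data. The number of arrays limits the precision.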

Additional observations from a re-analysis of the deposited data

How the results depend on the processing

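Against 264 genes higher and 164 lower, normexp gave 115 and 62, no filter on dim probes 655 and 947, and a floor of 5 times the lowest signal well above background 189 higher and 87 lower. Scaling to the array median gave 101 lower and 393 higher. The other settings gave 235 to 365 higher and 133 to 216 lower. Of these, the 75th percentile over spots (235 and 177) and leaving out spots near stray signal too (252 and 160) were chosen after seeing the data. Of 88 named genes past 2-fold, 65 stayed past it under normexp and 86 under scaling to the median, and 0 of these genes reversed under any of the 12 alternatives, while named genes near 0 could change sign. Under normexp 49 named genes moved by more than their scanner error. The authors' deposited matrix gave 269 higher, 252 of them shared, and 139 lower, 133 of them shared. Signal over background limits the dim genes. No paired analysis was possible because each genotype had 1 array.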

Other observations

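The 3 GADD45 genes, which act in growth arrest and stress signalling, were all at least 2-fold higher on the LIFR KO array. Gadd45b, chosen after its value was seen, gave 6539 on the wildtype, 17375 on the LIFR KO and 5042 on the gp130 KO array, or 2.66-fold higher. On the gp130 KO array Gadd45a alone was past 2-fold, at 2.06-fold higher. Of 4 measured Ypel genes 2 were past 2-fold, Ypel2 and Ypel5, the latter with 195 on the wildtype, 486 on the LIFR KO and 246 on the gp130 KO array.

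Of 303 measured zinc finger genes named Zfp with a number, 12 (3.96%) were at least 2-fold lower on the LIFR KO array and 3 (0.990%) higher, against 1.25% and 2.02% of all genes, and 188 had a ratio below 0. Their median log2 ratio was -0.13, and 0.036 for gp130 KO over wildtype. Zfp429 had 448 on the wildtype, 152 on the LIFR KO and 429 on the gp130 KO array, and Zfp433 913 on the wildtype, 357 on the LIFR KO and 967 on the gp130 KO array. Of 12 measured matrix metalloproteinase genes 4 were lower and 0 higher, with a median of -0.58 and of -0.53 for gp130 KO over wildtype. Mmp1b had 286 on the wildtype, 108 on the LIFR KO and 124 on the gp130 KO array. Of 14 measured Hox genes 2 were lower and 0 higher. One was Hoxa9, with 5213 on the wildtype, 2303 on the LIFR KO and 2034 on the gp130 KO array, and the other Hoxc12, with 164 on the wildtype, 75.2 on the LIFR KO and 107 on the gp130 KO array.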
